A study of Mus musculus with 10 samples.

Results

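The ionotropic glutamate receptors of the AMPA type (Gria1 to Gria4, which encode GluA1 to GluA4) and of the NMDA type (Grin1, Grin2a to Grin2d and Grin3a, which encode GluN1, GluN2A to GluN2D and GluN3A) were examined in the hippocampus of mice with an extra copy of Dyrk1a. Members were taken by gene symbol, with 1 transcript cluster per gene, the one with the highest mean over all arrays. Of the 10 listed genes, 9 were measured, out of 19938 genes on the arrays: 4 AMPA receptor subunits and 5 NMDA receptor subunits. Grin1, the glycine-binding subunit shared by NMDA receptors, had no transcript cluster under its symbol alone in the annotation used and was not analysed here. Transcript clusters annotated with several symbols were not searched for members. Total RNA came from the right and left hippocampus together of male mice aged 16 weeks, and was hybridised to Affymetrix whole-transcript arrays, which summarise probes spread along a transcript as a transcript cluster. The groups were 5 Tg(Dyrk1a) mice, in which a bacterial artificial chromosome adds a copy of Dyrk1a and which the labels call mutant trisomic, and 5 wild-type littermates. Both groups shared the C57BL/6N background given in the labels, while the study's methods name C57BL/6J for this line. Each mouse gave 1 array, and the transgenic group stands for a single line.

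AMPA receptors carry most of the fast excitatory current in the hippocampus, and their number and subunit make-up at the synapse change during long-term potentiation and depression. NMDA receptors open when glutamate and a co-agonist bind while the membrane is depolarised, and the calcium they admit starts those changes. Both are tetramers, so the subunits that a cell makes set calcium permeability, kinetics and trafficking. DYRK1A is a protein kinase encoded in the Down syndrome region of human chromosome 21. A kinase can act on receptors through phosphorylation, which an RNA array does not measure.

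Dyrk1a itself separated the genotypes. It measured 11.65, 11.62, 11.67, 11.65 and 11.68 in the Tg(Dyrk1a) mice, against 11.28, 11.15, 11.14, 11.19 and 11.15 in the wild-type mice (log2 RMA values). Every Tg(Dyrk1a) mouse lay above every wild-type mouse, with a log2 difference of 0.47 ± 0.03 (SE), or 1.38-fold (95% interval 1.31 to 1.46, limma adjusted p = 0.000138). A further Dyrk1a transcript cluster, lower in mean, measured 9.08, 8.90, 8.95, 8.88 and 8.88 in the Tg(Dyrk1a) mice, against 8.84, 8.87, 8.75, 8.73 and 8.72 in the wild-type mice. The groups did not overlap there either, but the log2 difference was 0.16 ± 0.05 (95% interval 0.05 to 0.26, 1.11-fold, limma adjusted p = 0.947). With the clusters of each gene averaged, Dyrk1a had a log2 difference of 0.31 (limma adjusted p = 0.0169).

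The genotypes did not separate at any of the 9 measured receptor subunits. Log2 differences, Tg(Dyrk1a) minus wild type, ran from -0.04 for Grin2c and Grin2d to 0.05 for Grin3a, and 6 subunits were nominally higher and 3 nominally lower. All 9 of the 95% intervals included 0. Their upper bounds lay below the lower bound of 0.40 for the Dyrk1a cluster with the higher mean, but not below the lower bound of 0.05 for the further cluster. With limma 0 of the 9 passed an adjusted p of 0.05 (background 0.00854%, 2 of 23410 transcript clusters, 1 of them Dyrk1a), and 0 reached an unadjusted p of 0.05 (background 4.93%, 1154 transcript clusters). In 0 of the 9 did the 2 groups of arrays stop overlapping (background 0.807%), and 0 were called by FCROS, the rank method of the study, on the same values (background 4.83%). The median size of the difference was 0.015 over the 9 subunits and 0.033 over all genes. In bulk tissue, fewer cells of a type and less RNA per cell cannot be told apart.

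**Figure D1:**
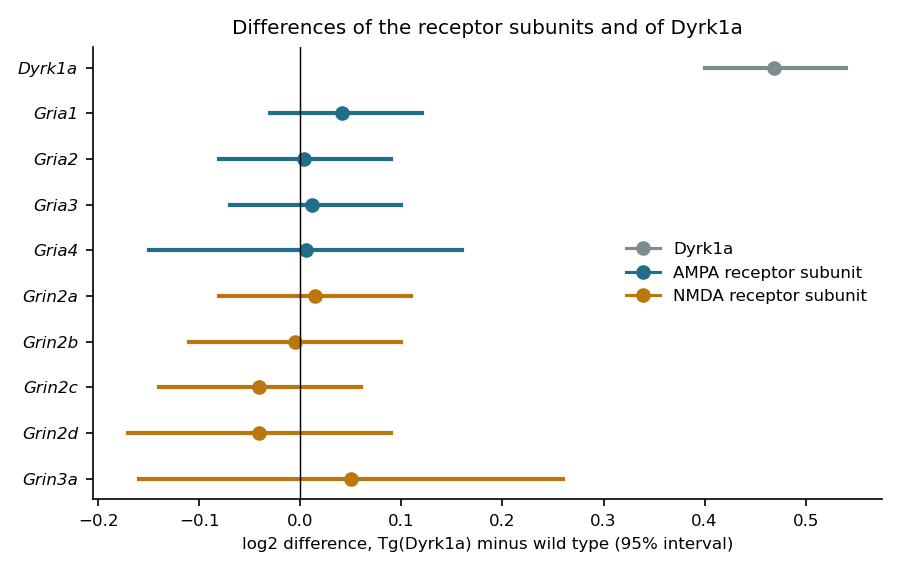
Log2 difference, Tg(Dyrk1a) minus wild type, of Dyrk1a and of the 9 measured receptor subunits (points), with 95% limma intervals (lines), 5 mice per genotype. The interval of Dyrk1a, shown for the transcript cluster with the higher mean, starts at 0.40, and every subunit interval crosses 0.

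Among the AMPA receptor subunits, Gria1 encodes GluA1, the subunit whose phosphorylation and delivery to synapses are best known from hippocampal potentiation (chromosome 11, 57011571 to 57330244 in GRCm38.p6). Its values were 11.90, 11.99, 11.93, 11.93 and 11.97 in Tg(Dyrk1a) mice, against 11.87, 11.96, 11.82, 11.93 and 11.93 in wild-type mice. The groups overlapped, although 4 of 5 Tg(Dyrk1a) mice lay above the wild-type mean. The log2 difference of 0.04 ± 0.03 gave 1.03-fold (95% interval 0.977 to 1.08, limma adjusted p = 0.952, two-sided exact permutation p = 0.222).

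Gria2 (chromosome 3, 80681450 to 80804227) encodes GluA2, whose edited form makes AMPA receptors nearly impermeable to calcium. It measured 11.18, 11.34, 11.33, 11.35 and 11.31 in Tg(Dyrk1a) mice, against 11.23, 11.30, 11.35, 11.27 and 11.34 in wild-type mice. Tg(Dyrk1a) mouse 1 stood below all other arrays, and the remaining 9 values were interleaved. The group means were both 11.30 and the fold was 1.00 (95% interval 0.945 to 1.06, limma adjusted p = 0.997, exact permutation p = 0.929).

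Gria3, the X-linked gene of GluA3, a common partner of GluA2 (chromosome X, 41400819 to 41678601), measured 10.93, 10.98, 11.09, 11.03 and 11.04 in Tg(Dyrk1a) mice, against 11.05, 10.98, 10.92, 11.00 and 11.05 in wild-type mice. The values of both genotypes spanned nearly the same stretch. The fold was 1.01 (95% interval 0.952 to 1.07, limma adjusted p = 0.983, exact permutation p = 0.746).

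Gria4 encodes GluA4, which in the adult hippocampus is known mainly from interneurons (chromosome 9, 4417893 to 4796234). It had the values 8.84, 8.96, 9.16, 8.97 and 8.98 in Tg(Dyrk1a) mice, against 9.05, 8.81, 8.84, 9.09 and 9.10 in wild-type mice. Mice of the same genotype differed more than the genotypes did, with SDs of 0.11 in Tg(Dyrk1a) and 0.14 in wild type. The fold was 1.00 (95% interval 0.904 to 1.11, limma adjusted p = 0.997, exact permutation p = 0.937).

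**Figure D2:**
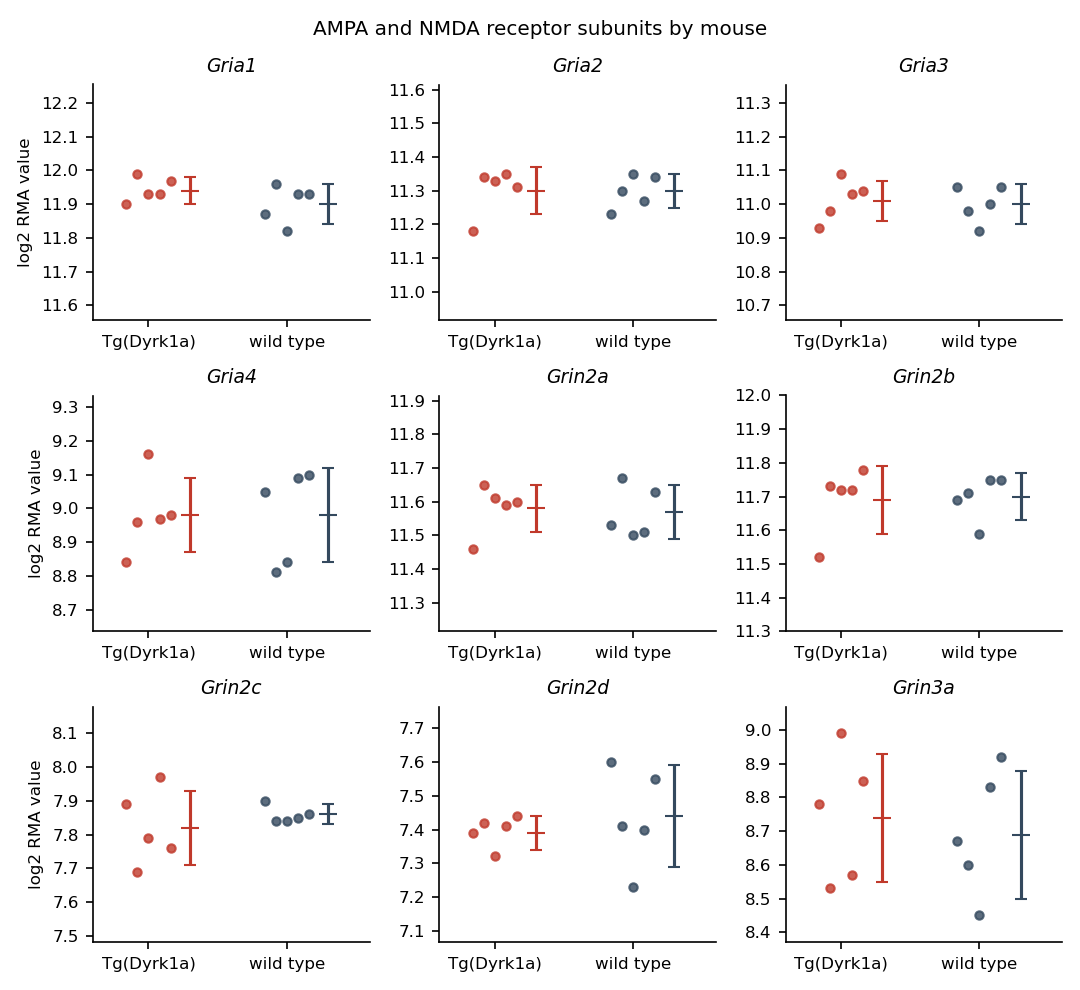
Log2 RMA values of each measured subunit in 5 Tg(Dyrk1a) and 5 wild-type mice (1 point per mouse, replicates 1 to 5 running left to right within a group), with the mean and SD beside them. Each panel has its own origin and the same height in log2 units, and the groups overlap in all 9 panels, with the widest scatter for Grin3a.

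Of the NMDA receptor subunits, Grin2a and Grin2b encode the glutamate-binding GluN2A and GluN2B of principal neurons, and GluN2A gains on GluN2B after birth. Grin2a lies on chromosome 16 (9567901 to 9996083), 84.6 Mb away from the mouse's own Dyrk1a gene. Where the added copy of Dyrk1a sits in the genome was not examined. Grin2a measured 11.46, 11.65, 11.61, 11.59 and 11.60 in Tg(Dyrk1a) mice, against 11.53, 11.67, 11.50, 11.51 and 11.63 in wild-type mice. Tg(Dyrk1a) mouse 1 was the lowest of the 10 arrays here as well, and the groups overlapped. The fold was 1.01 (95% interval 0.944 to 1.08, limma adjusted p = 0.983, exact permutation p = 0.754).

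Grin2b (chromosome 6, 135713221 to 136173615) had the values 11.52, 11.73, 11.72, 11.72 and 11.78 in Tg(Dyrk1a) mice, against 11.69, 11.71, 11.59, 11.75 and 11.75 in wild-type mice. Again Tg(Dyrk1a) mouse 1 was the lowest, while Tg(Dyrk1a) mouse 5 was the highest. The fold was 0.996 (95% interval 0.924 to 1.07, limma adjusted p = 0.996, exact permutation p = 0.905).

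Grin2c, best known from granule cells of the cerebellum (chromosome 11, 115249169 to 115267297), measured 7.89, 7.69, 7.79, 7.97 and 7.76 in Tg(Dyrk1a) mice, against 7.90, 7.84, 7.84, 7.85 and 7.86 in wild-type mice. The wild-type values were tight, with an SD of 0.03 against 0.11 in Tg(Dyrk1a), and 3 Tg(Dyrk1a) mice fell below all of them while 1 stood above. The log2 difference was -0.04 ± 0.05 (95% interval -0.14 to 0.06, limma adjusted p = 0.969, exact permutation p = 0.46).

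Grin2d, which in the adult forebrain is known mainly from interneurons (chromosome 7, 45831883 to 45871194), measured 7.39, 7.42, 7.32, 7.41 and 7.44 in Tg(Dyrk1a) mice, against 7.60, 7.41, 7.23, 7.40 and 7.55 in wild-type mice. Here the scatter was on the wild-type side, whose lowest and highest mice enclosed all Tg(Dyrk1a) values. The log2 difference was -0.04 ± 0.06 (95% interval -0.17 to 0.09, limma adjusted p = 0.973, exact permutation p = 0.595).

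Grin3a encodes GluN3A, a glycine-binding subunit that lowers the calcium permeability of NMDA receptors and is most abundant early in life (chromosome 4, 49661611 to 49846023). It measured 8.78, 8.53, 8.99, 8.57 and 8.85 in Tg(Dyrk1a) mice, against 8.67, 8.60, 8.45, 8.83 and 8.92 in wild-type mice. Its spread over the 10 arrays, 0.54 on the log2 scale, was the widest of the 9 subunits, and it was equally wide within each genotype (SD 0.19 in both). The fold was 1.04 with the widest interval of the 9 (95% interval 0.892 to 1.20, limma adjusted p = 0.977, exact permutation p = 0.706).

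The balance of paired subunits was compared within arrays, since an unequal RNA change could alter receptor composition, which was not measured. The log2 difference Grin2a minus Grin2b was -0.06, -0.08, -0.11, -0.14 and -0.18 in Tg(Dyrk1a) mice, against -0.17, -0.04, -0.09, -0.24 and -0.12 in wild-type mice. The shift between genotypes was 0.02 (95% interval -0.07 to 0.11, exact permutation p = 0.643, adjusted over the 2 pairs 0.643). Gria1 minus Gria2 was 0.72, 0.65, 0.60, 0.58 and 0.65 in Tg(Dyrk1a) mice, against 0.65, 0.65, 0.47, 0.66 and 0.59 in wild-type mice. That shift was 0.04 (95% interval -0.06 to 0.14, exact permutation p = 0.452, adjusted 0.643). Neither balance differed by more than the spread between mice. Because probes differ between genes, these values show a shift between genotypes and not which subunit was more abundant.

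The genes around the receptors gave 0 calls by limma among 67 measured of 72 listed, and 1 reached an unadjusted p of 0.05 (651 higher and 402 lower of 19938 genes in all). Of these 67, 40 were nominally higher in Tg(Dyrk1a), with a median log2 difference of 0.016, against 10303 of 19938 and a median of 0.002 over all genes. Auxiliary and trafficking proteins of AMPA receptors (23 measured) had 19 nominally higher and 4 nominally lower, with a median of 0.024. Partners of NMDA receptors and genes of co-agonist supply (12 measured) had 7 nominally higher and a median of 0.009. Postsynaptic scaffold and signalling genes (29 measured) had 13 nominally higher and a median of -0.008. None of these counts was tested as a list.

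Syndig1, which encodes a transmembrane protein of excitatory synapses that binds AMPA receptors, was the gene at an unadjusted p of 0.0151. It measured 10.32, 10.40, 10.31, 10.32 and 10.31 in Tg(Dyrk1a) mice, against 10.30, 10.29, 10.20, 10.15 and 10.21 in wild-type mice. The groups did not overlap (background 0.807% of transcript clusters), but the nearest values nearly touched and the log2 difference of 0.10 ± 0.04 had a limma adjusted p of 0.947. Cpt1c, an endoplasmic reticulum partner of GluA1, averaged 10.43 ± 0.05 in Tg(Dyrk1a) and 10.36 ± 0.06 in wild type (SD, n = 5 each, limma adjusted p = 0.947). Gsg1l, an auxiliary subunit that dampens AMPA receptor currents, averaged 8.05 ± 0.09 in Tg(Dyrk1a) and 8.14 ± 0.14 in wild type (limma adjusted p = 0.952). Grip2, a scaffold that binds GluA2, averaged 7.57 ± 0.09 in Tg(Dyrk1a) and 7.60 ± 0.15 in wild type (limma adjusted p = 0.983). Apart from Syndig1, the groups of these genes overlapped.

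On the NMDA side, Kif17, the kinesin that carries GluN2B along dendrites, averaged 7.42 ± 0.15 in Tg(Dyrk1a) and 7.32 ± 0.07 in wild type (SD, n = 5 each). Srr, the serine racemase that makes the co-agonist D-serine, averaged 10.14 ± 0.07 in Tg(Dyrk1a) and 10.08 ± 0.05 in wild type (limma adjusted p = 0.947 for both genes). Ptpn5, the phosphatase STEP that acts on GluN2B, averaged 9.33 ± 0.04 in Tg(Dyrk1a) and 9.36 ± 0.06 in wild type, and Grin3b, the relative of Grin3a known from motor neurons, 6.09 ± 0.07 in Tg(Dyrk1a) and 6.15 ± 0.08 in wild type. All 4 overlapped between genotypes.

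In the postsynaptic density, the scaffold gene Dlg1 (SAP97, which binds GluA1) averaged 10.28 ± 0.09 in Tg(Dyrk1a) and 10.37 ± 0.11 in wild type (SD, n = 5 each), and Dlg3 (SAP102) 9.84 ± 0.07 in Tg(Dyrk1a) and 9.79 ± 0.04 in wild type. Camk2b, a subunit of the kinase that phosphorylates GluA1, averaged 12.69 ± 0.04 in Tg(Dyrk1a) and 12.66 ± 0.01 in wild type, and Homer1 9.82 ± 0.02 in Tg(Dyrk1a) and 9.86 ± 0.07 in wild type. Camk2d, named after its value was seen, had the most negative log2 difference of the pathway genes, -0.13. Its limma p was larger than those of Dlg1 and Homer1 and did not reach an unadjusted 0.05. Adarb1 encodes the enzyme that edits the Gria2 transcript, and it averaged 9.94 ± 0.04 in Tg(Dyrk1a) and 9.95 ± 0.08 in wild type (limma adjusted p = 0.994). Adar averaged 9.54 ± 0.05 in Tg(Dyrk1a) and 9.58 ± 0.06 in wild type, and Adarb2, whose product has no known editing activity, 7.58 ± 0.13 in Tg(Dyrk1a) and 7.47 ± 0.09 in wild type. Editing itself was not measured by these arrays.

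**Figure D3:**
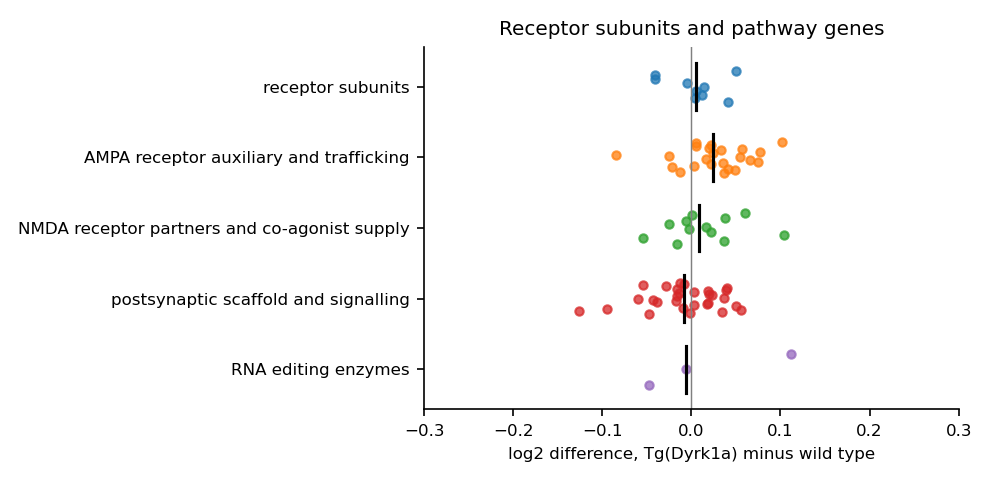
Log2 difference, Tg(Dyrk1a) minus wild type, of each measured receptor subunit and pathway gene (1 point per gene, spread vertically for legibility), with the list median as a black bar. All points lie between -0.13 and 0.11 and 0 of them passed the limma threshold.

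Marker genes of several cell types and neighbouring tissues varied between arrays, and Grin3a correlated with those of dentate granule cells. Marker genes were summarised as a score per array, the mean over a list of each gene's log2 value minus its mean over the arrays. Hippocampal markers were measured in all arrays, with Prox1 of dentate granule cells at 9.86 to 10.23 in Tg(Dyrk1a) and 9.76 to 10.12 in wild type, and Wfs1 of CA1 pyramidal cells at 10.47 to 10.89 in Tg(Dyrk1a) and 10.42 to 10.77 in wild type. The choroid plexus score exceeded 0.5 in 3 arrays, Tg(Dyrk1a) mice 2 and 4 and wild-type mouse 5. Dentate granule cell markers were nominally higher in Tg(Dyrk1a) for 8 of 8 genes (score -0.07 to 0.24 in Tg(Dyrk1a), -0.20 to 0.03 in wild type). Thalamus markers were nominally higher for 1 of 10 (score -0.15 to 0.00 in Tg(Dyrk1a), -0.13 to 0.49 in wild type), interneuron markers for 11 of 12 (-0.04 to 0.13 in Tg(Dyrk1a), -0.12 to 0.01 in wild type), vessel markers for 7 of 9 (0.01 to 0.11 in Tg(Dyrk1a), -0.17 to 0.02 in wild type) and meningeal markers for 12 of 12 (-0.12 to 0.25 in Tg(Dyrk1a), -0.25 to 0.07 in wild type). Choroid plexus markers were nominally higher for 11 of 13 and CA pyramidal cell markers for 11 of 14. Oligodendrocyte markers were so for 7 of 9, astrocyte markers for 7 of 11 and microglia markers for 6 of 9. Over all genes, 51.7% were nominally higher.

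Grin3a ran opposite to the dentate granule cell score. Over the 10 arrays, taken as deviations from the genotype means, Pearson's r was -0.92 (permutation p = 0.00024, adjusted over 18 relations 0.00432) and Spearman's rho was -0.93 (permutation p = 0.00027, adjusted 0.00486). Leaving out Tg(Dyrk1a) mice 2 and 3, the arrays farthest from the median score, gave r = -0.90. Among the Tg(Dyrk1a) mice, mouse 2 had the highest dentate score and the lowest Grin3a, and mouse 3 the lowest score and the highest Grin3a. In wild type, mouse 5 had the lowest score and the highest Grin3a. Tg(Dyrk1a) mice 2 and 4, both above 0.5 on the choroid plexus score, had the highest dentate scores and lowest Grin3a values of their genotype. Wild-type mouse 5 was also above 0.5 on the choroid plexus score, with the opposite pattern. The relation of Grin3a with the choroid plexus score was not tested. With 5 mice per genotype, r was not computed within a genotype.

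No other of the 18 relations passed the adjustment. Gria4 had r = -0.70 with the dentate score (permutation p = 0.0257, adjusted 0.231) and rho = -0.81 (permutation p = 0.00681, adjusted 0.0613), and Gria3 had r = -0.65 (permutation p = 0.0408, adjusted 0.245) and rho = -0.64 (permutation p = 0.0531, adjusted 0.239). Without Tg(Dyrk1a) mice 2 and 3 r was -0.77 for Gria4 and -0.55 for Gria3. Of the thalamus score, the strongest relation was with Gria2, at r = 0.50 (permutation p = 0.143, adjusted 0.643) and rho = 0.76 (permutation p = 0.015, adjusted 0.09). Without wild-type mice 2 and 5 it had r = 0.78. Gria1, Grin2a and Grin2b had r between -0.13 and 0.18 with the dentate score. The dentate score was not the only one that Grin3a followed. In relations added after seeing the data, its r was 0.78 with the vessel score (permutation p adjusted over 81 relations 0.157). Spearman's rho there was 0.90 (adjusted permutation p = 0.0304). With the interneuron score r was 0.76 (adjusted permutation p = 0.191).

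**Figure D4:**
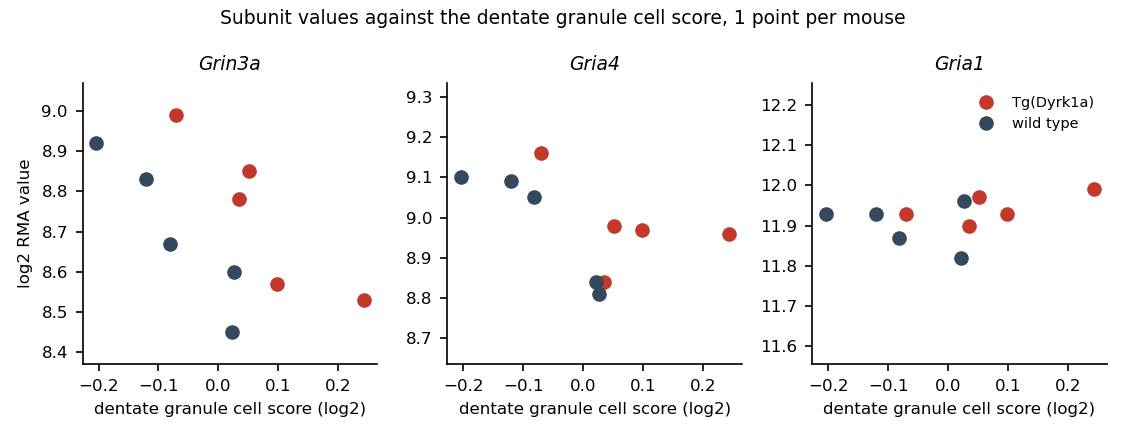
Log2 RMA values of Grin3a, Gria4 and Gria1 against the dentate granule cell marker score of the same array (log2, 0 being the mean over arrays), 1 point per mouse, 5 Tg(Dyrk1a) and 5 wild type. Grin3a declines with the score in both genotypes, Gria4 less tightly, and Gria1 shows no such slope (r = 0.10).

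Since Grin3a ran opposite to the dentate score and the score averaged 0.14 higher in Tg(Dyrk1a) than in wild type, the genotype difference was refitted with the score as a covariate, an alternative chosen after seeing the data. At equal score, the log2 difference of Grin3a was 0.28 ± 0.06 (95% interval 0.16 to 0.41, limma adjusted p = 0.427), against 0.05 ± 0.10 without it. Gria4 had 0.13 ± 0.07 (95% interval -0.02 to 0.28, limma adjusted p = 0.957), and the other 7 subunits lay between -0.01 and 0.06. None passed the adjusted threshold. The score was chosen for its relation with Grin3a, and the interval of Grin3a does not allow for that choice. The vessel and interneuron scores averaged 0.11 and 0.09 higher in Tg(Dyrk1a) and were not used as covariates. When the covariates were the scores of thalamus, meninges and choroid plexus instead, the log2 difference of Grin3a was -0.022, the opposite direction, so its size and sign depended on the scores included. Whether the tissue make-up of the samples set the values of Grin3a was not tested.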

How the data were processed

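Hippocampal RNA of 10 male mice (5 Tg(Dyrk1a), 5 wild-type littermates) was hybridised to Affymetrix Mouse Gene ST arrays. The deposited values are on a log2 scale and were made by the authors with RMA (robust multi-array average), and their processing notes name RMA, limma and mm10, with no versions. RMA compresses fold changes, above all of dim transcripts, and scanner intensities were not used here. Array medians ran from 6.57 to 6.66 and pairwise correlations across transcript clusters from 0.994 to 0.998. The number of arrays limits the precision: replicate SDs had a median of 0.069 among Tg(Dyrk1a) and 0.064 among wild-type arrays.

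Of 35556 rows, 23410 had a gene symbol (21789 with 1, 1621 with several, tested but not named) and 12146 had none. Symbols and positions came from RefSeq, GRCm38.p6. The genotype test was limma 3.58.1 (R 4.3.3) with no covariate and Benjamini-Hochberg adjustment over the 23410 transcript clusters. Folds have Tg(Dyrk1a) on top. Single values also had a two-sided exact permutation test over 252 assignments (smallest possible p 0.00794). FCROS was rewritten from its description (25% of ranks trimmed at each end, f-value below 0.025 or the mirrored upper limit). Relations used 100000 permutations. The fits were tested on simulated data, with changes larger than the subunit differences of the main fit. That test did not cover differences as small as these. Members and lists were chosen with earlier results of these data known. Named pathway genes were the 2 higher and the 2 lower genes of each list with the smallest limma p, and all 3 editing enzymes. The labels call the arrays biological replicates. Replicate numbers were not treated as pairs in the main fit. Alternatives covered the normalization, array weights, dim transcript clusters, marker scores, a replicate block and leaving out arrays.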

Additional observations from a re-analysis of the deposited data

Results flagged for a closer look

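Tg(Dyrk1a) mouse 1 stood apart from the other 4 Tg(Dyrk1a) mice at 2 subunits. Its Gria2 value was 11.18 where the nearest of the group was 11.31, a gap of 0.791 of the group's range, and its Grin2b value was 11.52 where the nearest was 11.72, a gap of 0.76 of the range. Dixon's limit for 5 arrays is 0.71, and chance alone flags about 1 in 20 of such groups, with 18 examined here. Without this mouse the log2 difference, Tg(Dyrk1a) minus wild type, was 0.034 for Gria2 and 0.039 for Grin2b.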

How the results depend on the processing

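With limma, 0 of the 9 subunits passed under any of the 21 settings, and the lowest adjusted p was 0.427. Of 189 subunit values under these settings, 157 kept their direction and 32 turned, all of them within an interval that includes 0 in the fit without alternatives, and only Grin2d kept its direction throughout. Array weights turned Grin2b to 0.006, median centring turned it to 0.01, and quantile normalization turned Gria2 to -0.007 and Gria4 to -0.003. Marker scores as covariates gave Gria1 -0.015, Gria2 -0.002, Gria3 -0.031, Gria4 -0.116, Grin2a -0.024, Grin2c 0.026 and Grin3a -0.022, and left Dyrk1a at 0.44 with an adjusted p of 0.177. With the 3 choroid-rich arrays dropped, Gria2 was -0.015 and Grin3a 0.236. The dentate score as covariate, added after seeing the data, gave Gria2 -0.014, Grin2a -0.004, Grin2b 0.01 and Grin3a 0.285. The causes were not tested.

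Leaving out 1 array at a time gave 0.020 to 0.055 for Gria1, -0.014 to 0.034 for Gria2, -0.009 to 0.031 for Gria3, -0.039 to 0.040 for Gria4, -0.002 to 0.045 for Grin2a, -0.033 to 0.039 for Grin2b, -0.079 to -0.008 for Grin2c, -0.093 (without wild-type mouse 3) to 0.00 (without wild-type mouse 1) for Grin2d and -0.012 to 0.107 for Grin3a. The balance of Grin2a and Grin2b ran from -0.008 to 0.042, turning without wild-type mouse 4, and that of Gria1 and Gria2 from 0.004 (without wild-type mouse 3) to 0.053. The relation of Grin3a with the dentate score ran from -0.96 to -0.90. It was -0.94 after quantile normalization (unadjusted permutation p = 0.00018) and -0.73 after median centring (unadjusted permutation p = 0.014). These p-values were not adjusted over the relations, so whether this relation passes the adjustment after median centring was not tested. Transcript clusters called over the whole table numbered 2, between 0 (marker scores as covariates) and 5 (array weights) over limma settings, and 1131 by FCROS. The FCROS count is of another kind than the adjusted limma counts. As rewritten here, it cuts the tails of rank scores scaled by their own mean and SD. The replicate block left 0 subunits called, Dyrk1a at 0.47 (limma adjusted p = 0.0179) and 1 transcript cluster called, and the balances at 0.02 and 0.038 (exact sign-flip p = 0.625 and 0.5, smallest possible 0.0625). As deviations from the genotype means, same-numbered Tg(Dyrk1a) and wild-type arrays correlated between -0.285 and 0.276. These values cannot show whether the numbers marked pairs. Median centring moved the median of all transcript clusters to 0.016.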

Other observations

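The dentate genes were also set singly against Grin3a, over deviations from the genotype means of the 10 arrays, after seeing the data. Pearson's r was below 0 for 7 of the 8, at -0.93 for Stxbp6, -0.90 for Trpc6, -0.89 for C1ql2, -0.88 for Dock10, -0.82 for Prox1, -0.81 for Dsp and -0.71 for Glis3. Tdo2, also a dentate granule cell marker, had r = 0.04. These genes share the arrays and, in part, the cells, so the values are not independent of each other.

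All 9 marker scores other than choroid plexus were then set against all 9 subunits, again after seeing the data. Of these 81 relations, 1 passed the adjustment on Pearson's r, that of Grin3a with the dentate score (adjusted permutation p = 0.0178). Grin3a with the vessel score had r = 0.78 (permutation p = 0.00581, adjusted 0.157) and rho = 0.90 (permutation p = 0.00075, adjusted 0.0304), and r = 0.75 without wild-type mice 3 and 4. With the interneuron score Grin3a had r = 0.76 (permutation p = 0.017, adjusted 0.191) and rho = 0.72 (permutation p = 0.0236, adjusted 0.239). Gria2 with the oligodendrocyte score had r = 0.74 (permutation p = 0.016, adjusted 0.191) and rho = 0.85 (permutation p = 0.00241, adjusted 0.0651). Grin2b with the meninges score had r = 0.81 (permutation p = 0.00156, adjusted 0.0632) and rho = 0.83 (permutation p = 0.00462, adjusted 0.0936), and r = 0.68 without Tg(Dyrk1a) mouse 1 and wild-type mouse 4.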
